A study of Mus musculus with 3 samples.

Results

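The genes described here are 8 genes of the mineralized matrix of bone and dentin, *Dspp*, *Dmp1*, *Ibsp*, *Mepe*, *Spp1*, *Bglap*, *Sparc* and *Phex*. They were chosen by name, with earlier results of these data known. All 8 were among the 20937 genes listed and among the 18702 genes tested. RNAseq of the whole incisor enamel organ was performed in mice aged 4 weeks, with 1 library per genotype, and the study's methods state that male mice were used. Stim1 cKO was AmelX-iCre+; Stim1 fl/fl, Stim1 HT was AmelX-iCre+; Stim1 fl/wt, and Stim1 Ctrl was AmelX-iCre-; Stim1 fl/fl and so without Cre. All 3 genotypes therefore carried a floxed *Stim1* allele, and the libraries with Cre were Stim1 cKO and Stim1 HT. AmelX-iCre recombines in ameloblasts from the secretory stage on, so osteoblasts, odontoblasts and other mesenchymal cells are not cells in which *Stim1* is deleted by design. STIM1 is the endoplasmic reticulum calcium sensor that opens store-operated calcium channels, and the study asked how its loss changes gene expression in enamel-forming cells.

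*Dspp*, *Dmp1*, *Ibsp*, *Mepe* and *Spp1* form the SIBLING family, the small integrin-binding ligand N-linked glycoproteins. They are secreted, acidic phosphoproteins that lie next to each other in the genome, and they bind calcium, hydroxyapatite and cell surface integrins. Phosphorylation in the secretory pathway and cleavage outside the cell decide whether such a protein promotes or blocks crystal growth. Osteoblasts, osteocytes and odontoblasts are their main sources, whereas ameloblasts secrete a matrix of amelogenin, ameloblastin and enamelin. *Bglap* encodes osteocalcin, *Sparc* encodes osteonectin, and *Phex* encodes a peptidase that degrades SIBLING peptides.

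The upstream sequences of 5 of these genes are shown because the genes differed in how far their levels in Stim1 cKO departed from those in the controls. The first 3, *Mepe*, *Spp1* and *Dmp1*, were more than 2-fold lower in Stim1 cKO than in either control, and *Ibsp* and *Bglap* were not. The sequences are the 250 bases before the RefSeq transcription start on GRCm38.p6, read 5′ to 3′ on the strand of the gene. Capitals mark 4 short motifs searched on both strands, the Runx site TGTGGT (reverse ACCACA), the TATA box TATAAA (reverse TTTATA), the CCAAT box CCAAT (reverse ATTGG) and the homeodomain site TAATTA. None of the capitalized matches overlap.
Mepe, chr5:104325079-104325328, plus strand: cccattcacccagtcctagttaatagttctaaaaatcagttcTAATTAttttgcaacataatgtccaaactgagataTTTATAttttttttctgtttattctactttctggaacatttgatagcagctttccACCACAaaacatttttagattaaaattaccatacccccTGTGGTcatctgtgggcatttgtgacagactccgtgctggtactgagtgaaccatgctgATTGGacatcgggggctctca
Spp1, chr5:104434861-104435110, plus strand: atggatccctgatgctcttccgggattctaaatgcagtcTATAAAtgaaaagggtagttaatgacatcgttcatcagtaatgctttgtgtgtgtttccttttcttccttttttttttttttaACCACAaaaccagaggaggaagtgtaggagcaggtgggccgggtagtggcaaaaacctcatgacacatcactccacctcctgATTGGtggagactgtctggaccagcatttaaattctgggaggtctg
Dmp1, chr5:104202367-104202616, plus strand: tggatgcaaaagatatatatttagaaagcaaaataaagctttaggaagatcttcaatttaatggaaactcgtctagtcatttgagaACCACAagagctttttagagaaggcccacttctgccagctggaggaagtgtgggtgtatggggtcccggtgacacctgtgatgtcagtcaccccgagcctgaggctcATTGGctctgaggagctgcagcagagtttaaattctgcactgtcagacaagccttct
Ibsp, chr5:104299037-104299286, plus strand: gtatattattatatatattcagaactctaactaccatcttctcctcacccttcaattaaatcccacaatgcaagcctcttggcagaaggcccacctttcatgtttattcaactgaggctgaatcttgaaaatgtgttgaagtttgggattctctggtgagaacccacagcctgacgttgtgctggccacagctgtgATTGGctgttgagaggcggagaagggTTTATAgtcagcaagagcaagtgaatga
Bglap, chr3:88384467-88384716, minus strand: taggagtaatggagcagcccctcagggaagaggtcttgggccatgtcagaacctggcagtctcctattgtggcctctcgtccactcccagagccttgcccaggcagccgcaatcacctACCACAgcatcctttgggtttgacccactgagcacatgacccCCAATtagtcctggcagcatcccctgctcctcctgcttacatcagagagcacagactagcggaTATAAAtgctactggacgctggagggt
*Mepe* held 2 Runx site matches, which began 80 and 118 bases before the start. *Spp1* held 1 match that began 128 bases before the start, *Dmp1* 1 at 164 bases and *Bglap* 1 at 132 bases. *Ibsp*, *Sparc* and *Phex* held none in this window, nor did the windows of the other start of *Spp1* and of *Dmp1*. RefSeq windows were matched for 7 of the 8 genes and numbered 9, since *Dmp1* and *Spp1* have a second start each, and *Dspp* was not matched. The Runx site was present in 4 of the 9 windows and in 14.0% of all 32851 windows of the same length. The TATA box was present in 4 of 9 against 12.4%, the CCAAT box in 6 of 9 against 33.8% and the homeodomain site in 2 of 9 against 4.84%. Matches were counted at any distance within the window. Those of the TATA box began 27 bases before the start in *Bglap*, 28 in *Ibsp*, 173 in *Mepe* and 211 in *Spp1*. The Runx site therefore lay upstream of *Bglap* as well as upstream of the 3 genes with the largest departures.

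The totals were 21496136 counts in Stim1 cKO, with 20216507 in Stim1 HT and 28265960 in the Stim1 Ctrl library. Levels are given as TMM-scaled CPM, the counts of a gene relative to the library total (CPM) after the TMM correction of edgeR for composition. With 1 library per genotype there is no estimate of the error between mice of one genotype, and intervals cover counting error only. *Stim1*, the targeted gene, was at 72.8 CPM in Stim1 cKO, with 129 in Stim1 HT and 186 in the Stim1 Ctrl library. In edgeR's quasi-likelihood test of Stim1 cKO against both controls, whose spread rests on how far the 2 control libraries lie apart, the log2 fold change of *Stim1* was −1.11 (Benjamini-Hochberg adjusted p = 0.106). The test also moderated that spread towards a trend over all genes, with 4.15 prior and 1 residual degrees of freedom. The 2 controls differ in genotype and Cre, so their distance is not a spread between mice of one genotype. In bulk tissue, fewer cells of a type and less RNA per cell cannot be told apart.

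The Stim1 cKO library stood apart from both controls in marker genes of other cell types. The labels name ameloblasts as the cell type, and markers of several other cell types were present and differed between libraries. Beside the counts that follow, 42.1% of all genes tested were lower than in both controls and 43.6% higher. Scaled by library size alone, these shares were 30.3% and 54.2%. Osteoblast and osteocyte markers were lower in 10 of 12 cases (8 when scaled by library size alone), with a median log2 fold change of −0.89. Their summed level was 21576 CPM in Stim1 cKO, with 23423 in Stim1 HT and 38055 in the Stim1 Ctrl library. *Col1a1* alone made up 21092, 22640 and 37268 CPM of these sums, which therefore show little of the other markers. Of 6 odontoblast markers, 4 were lower (1 when scaled by library size alone) and 1 was higher, from *Nes* at a log2 fold change of −1.58 to *Sall1* at 0.72, with summed levels of 21397, 23165 and 37839 CPM, again mostly *Col1a1*. Without *Col1a1*, the other 5 summed to 304, 526 and 571 CPM. All 8 osteoclast markers were lower, at 380 CPM in sum against 1645 and 1894, as were all 7 macrophage markers, at 140 against 304 and 339. Of 8 pulp fibroblast markers, 7 were lower (6 when scaled by library size alone) and 1 was higher, at 4392 CPM in sum against 9663 and 14350. Cartilage markers were lower in 3 of 7 cases and higher in 2, at 222 CPM against 551 and 792, and all 6 skeletal muscle markers were lower, at 3190 CPM against 21368 and 28700. Ameloblast markers summed to 4479 CPM in Stim1 cKO, with 31552 in Stim1 HT and 23279 in the Stim1 Ctrl library. Of the 8, 4 were lower and 3 higher (3 lower and 4 higher when scaled by library size alone). The 4 enamel epithelium markers were all higher in Stim1 cKO, at 2742 CPM against 1672 and 1555. The 4 retina markers listed were also higher there, at 851 CPM against 0.355 and 0.738, and they were 4 of the 14 genes that edgeR called. Transcripts of other tissues were also abundant there. *Bpifb9b*, a gene of nasal and oral secretions, was at 3202 CPM against 63.6 and 0.194, the mucin gene *Muc5b* at 2397 against 236 and 9.17, and the neuronal gene *Elavl3* at 722 against 28.1 and 5.87. *Xist*, the X-inactivation RNA of female cells, was at 450.2 CPM in Stim1 cKO against 1.83 and 0.0389, while 4 Y-linked genes summed to 97.7 CPM against 177 and 179. The library labelled Stim1 cKO thus held female-specific and male-specific transcripts together, whereas the methods state male mice. Since only genes with a count in every library are listed, absence of a marker could not be seen. The part of these other transcripts in the levels of the 8 matrix genes was not tested.

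Of the 8 genes, 6 were lower in Stim1 cKO than in both controls, 1 (*Dspp*) was higher than in both, and *Bglap* lay between the controls. Across all genes tested, 42.1% were lower than in both controls and 43.6% were higher than in both. *Dmp1*, *Mepe* and *Spp1* were more than 2-fold lower than in each control, as were 8.23% of all genes tested. With edgeR, none of the 8 genes was called at an adjusted p under 0.01 and a fold change over 2, and 14 genes of the whole table (0.0749%) were called, all of them higher in Stim1 cKO. At an unadjusted p under 0.05 in edgeR, the same 3 genes were lower, beside 13.4% of all genes. DESeq2, at the same thresholds as the edgeR calls, called these 3 lower, beside 4.71% of all genes. The median log2 fold change was −0.81 over the 8 genes, −1.62 over the 5 SIBLING genes and −0.01 over all genes tested. Scaled by library size alone, these medians were −0.55, −1.36 and 0.25, with 5 of the 8 genes lower than both controls.

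**Figure D1:**
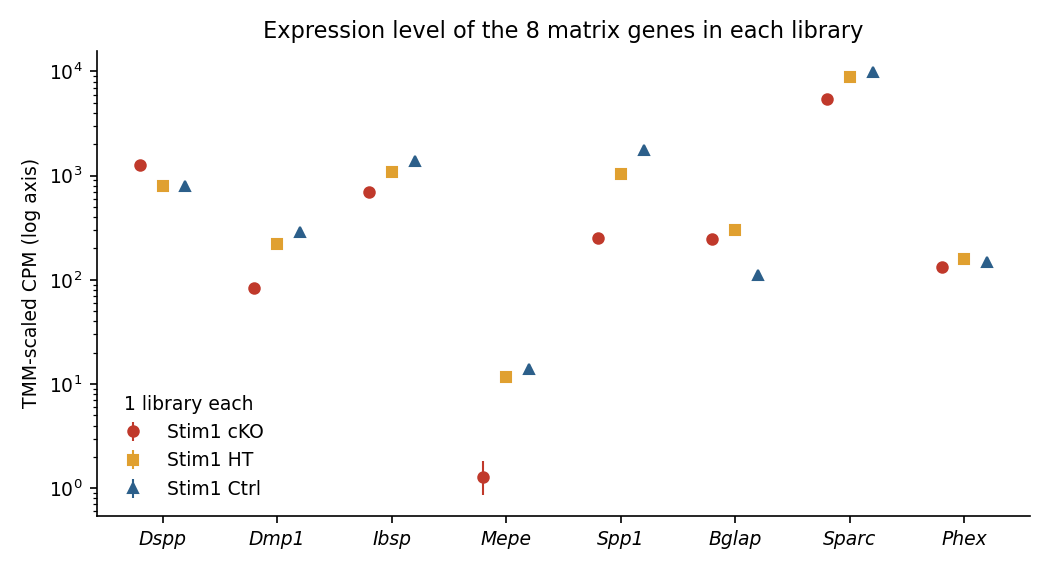
TMM-scaled CPM (log axis) of the 8 matrix genes in the Stim1 cKO, Stim1 HT and Stim1 Ctrl libraries, 1 point per library, with bars for the 95% exact Poisson interval of the count, which are mostly smaller than the points. *Mepe* had 1.28 CPM in Stim1 cKO against 11.6 and 14.0 in the controls, whereas the 3 points of *Phex* lie between 132 and 157 CPM.

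*Spp1* (chr5:104435118-104441050, plus strand) encodes osteopontin, an inhibitor of crystal growth that anchors osteoclasts and other cells through integrins and is also made by osteoclasts and macrophages. Its counts were 6071 in Stim1 cKO, with 20530 in Stim1 HT and 45794 in the Stim1 Ctrl library, or 251, 1042 and 1780 CPM. Stim1 cKO was the lowest of the 3 libraries, and Stim1 Ctrl was 1.71-fold above Stim1 HT. The level in Stim1 cKO was 4.16-fold below Stim1 HT and 7.10-fold below Stim1 Ctrl. In edgeR the log2 fold change against both controls was −2.49 (Benjamini-Hochberg adjusted p = 0.0481), and in DESeq2 it was −2.50 ± 0.40 (SE, adjusted p = 2.99e-08). An exon of *Spp1* overlaps the unclassified transcript *Gm42793* on the same strand, and reads of the overlap could be counted for either.

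*Mepe* (chr5:104325329-104338611, plus strand) encodes matrix extracellular phosphoglycoprotein, a product of osteocytes and odontoblasts whose ASARM peptide inhibits mineralization. It had 31 counts in Stim1 cKO, with 228 in Stim1 HT and 361 in the Stim1 Ctrl library, or 1.28 (95% interval 0.870 to 1.82), 11.6 and 14.0 CPM. The controls lay close to each other and well above the interval of Stim1 cKO. The level in Stim1 cKO was 9.04-fold below Stim1 HT and 11.0-fold below Stim1 Ctrl, the largest departure among the 8 genes. The edgeR log2 fold change was −3.32 (Benjamini-Hochberg adjusted p = 0.0281), and DESeq2 gave −3.33 ± 0.64 (SE, adjusted p = 6.33e-06).

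*Dmp1* (chr5:104202613-104214102, plus strand) encodes dentin matrix protein 1, which osteocytes and odontoblasts secrete and which restrains *Fgf23* and nucleates mineral. Its counts were 2019 in Stim1 cKO, with 4395 in Stim1 HT and 7486 in the Stim1 Ctrl library, or 83.4, 223 and 291 CPM. Both controls were above Stim1 cKO, which was 2.68-fold below Stim1 HT and 3.49-fold below Stim1 Ctrl. The edgeR log2 fold change was −1.62 (Benjamini-Hochberg adjusted p = 0.0496), and DESeq2 gave −1.63 ± 0.35 (SE, adjusted p = 4.99e-05). Over the fits tried, the adjusted p ranged from 4.99e-05 to 0.0622 for *Dmp1*, from 2.99e-08 to 0.0606 for *Spp1* and from 6.33e-06 to 0.0401 for *Mepe*, with the lowest value from DESeq2 in each case.

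*Ibsp* (chr5:104299171-104311469, plus strand) encodes bone sialoprotein, a nucleator of hydroxyapatite in newly formed bone and cementum. It had 16725 counts in Stim1 cKO, with 21258 in Stim1 HT and 35394 in the Stim1 Ctrl library, or 691, 1079 and 1375 CPM. Stim1 cKO was again the lowest library, but less far from the controls than for *Spp1*, at 1.56-fold below Stim1 HT and 1.99-fold below Stim1 Ctrl. The log2 fold change of −0.83 did not pass the edgeR test (Benjamini-Hochberg adjusted p = 0.209), nor did the DESeq2 value of −0.84 ± 0.32 (SE, adjusted p = 0.0547).

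*Dspp* (chr5:104170712-104180127, plus strand) encodes dentin sialophosphoprotein, the precursor of the main non-collagenous proteins of dentin, made by odontoblasts and for a short time by young ameloblasts. Its counts were 30590 in Stim1 cKO, with 15596 in Stim1 HT and 20376 in the Stim1 Ctrl library, or 1264, 792 and 792 CPM. The controls were equal to 3 digits, and Stim1 cKO was 1.60-fold above each. This log2 fold change of 0.67 did not pass the edgeR test (Benjamini-Hochberg adjusted p = 0.232) or the DESeq2 test (0.67 ± 0.29, SE, adjusted p = 0.0948). Among the SIBLING genes it was the 1 gene with a higher level in Stim1 cKO.

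The SIBLING gene counts therefore had another make-up in each library, a comparison within a library that does not depend on the scaling between libraries. *Dspp* made up 55.2% of the summed SIBLING counts in Stim1 cKO (95% Wilson interval 54.8 to 55.6), with 25.2% in Stim1 HT and 18.6% in the Stim1 Ctrl library. For *Spp1* the share was 11.0% in Stim1 cKO, with 33.1% in Stim1 HT and 41.9% in the Stim1 Ctrl library. *Ibsp* held 30.2%, 34.3% and 32.3% in the same order, and 41.6%, 36.7% and 32.6% with counts divided by exon length, where it was the largest part in Stim1 cKO. The remaining genes were *Dmp1*, with 3.64%, 7.09% and 6.84%, and *Mepe*, with 0.0559%, 0.368% and 0.330% in the same order. Divided by exon length, the share of *Dspp* was 35.5% in Stim1 cKO, with 12.6% in Stim1 HT and 8.77% in the Stim1 Ctrl library. As a ratio of counts, *Dspp* to *Spp1* was 5.04 in Stim1 cKO, with 0.760 in Stim1 HT and 0.445 in the Stim1 Ctrl library. *Dspp* to *Dmp1* was 15.2, 3.55 and 2.72, and *Mepe* to *Dmp1* was 0.0154 (95% interval 0.0108 to 0.0219), 0.0519 and 0.0482.

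**Figure D2:**
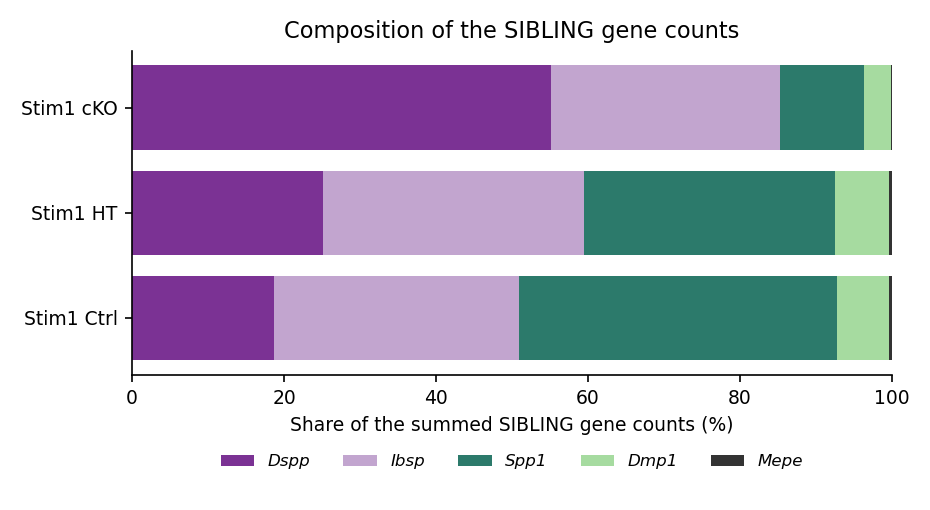
Share (%, horizontal axis) of each of the 5 SIBLING genes in their summed counts, with 1 bar per library. *Dspp* takes 55.2% of the Stim1 cKO bar and 18.6% of the Stim1 Ctrl bar, and *Spp1* 11.0% and 41.9%.

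Type I collagen, the scaffold on which these proteins act, gives a second reference within each library. *Col1a1* was at 21092 CPM in Stim1 cKO, with 22640 in Stim1 HT and 37268 in the Stim1 Ctrl library. Per 1000 *Col1a1* counts, the summed SIBLING genes gave 108.6 counts in Stim1 cKO, with 139.0 in Stim1 HT and 114.1 in the Stim1 Ctrl library. The place of Stim1 cKO depended on the reference, since per 1000 *Col1a2* counts the sums were 226.2, 182.0 and 169.3 in the same order, and without *Spp1* they were 96.7, 93.0 and 66.3 per 1000 *Col1a1* counts. Single genes departed from this sum. *Spp1* gave 11.9 counts per 1000 in Stim1 cKO against 46.0 and 47.8 in Stim1 HT and Stim1 Ctrl, *Mepe* 0.0607 against 0.511 and 0.376, and *Dmp1* 3.95 against 9.86 and 7.81. *Ibsp*, at 32.8 against 47.7 and 36.9, was also lowest in Stim1 cKO on this reference. *Dspp* was highest there, at 59.9 against 35.0 and 21.2. The place of *Ibsp* depended on the reference too. Its log2 ratios of Stim1 cKO to Stim1 HT and to Stim1 Ctrl were −0.64 and −0.99, whereas those of *Col1a2* were −0.77 and −1.31. Relative to *Col1a2*, *Ibsp* was therefore highest in Stim1 cKO.

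*Phex* (chrX:157162075-157415312, minus strand) encodes the endopeptidase of osteoblasts, osteocytes and odontoblasts that degrades the ASARM peptides of osteopontin and MEPE. It had 3192 counts in Stim1 cKO, with 3090 in Stim1 HT and 3844 in the Stim1 Ctrl library, or 132, 157 and 149 CPM, the narrowest range of the 8 genes on the log2 scale. The log2 fold change was −0.22 with TMM scaling and 0.04 with library size alone, and neither passed the edgeR test (Benjamini-Hochberg adjusted p = 0.613 and 0.932). That scaling moves every gene upwards, and it put the median over all genes tested at 0.25, with 30.3% lower than both controls and 54.2% higher. The ratio of *Phex* to *Dmp1* counts was 1.58 in Stim1 cKO, with 0.703 in Stim1 HT and 0.513 in the Stim1 Ctrl library.

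*Sparc* (chr11:55394500-55423183, minus strand) encodes osteonectin, a calcium- and collagen-binding protein that fibroblasts and endothelial cells make as well as bone cells. It had 131719 counts in Stim1 cKO, with 175798 in Stim1 HT and 253771 in the Stim1 Ctrl library, or 5441, 8925 and 9862 CPM. Stim1 cKO was 1.64-fold below Stim1 HT and 1.81-fold below Stim1 Ctrl. The edgeR log2 fold change of −0.79 had a Benjamini-Hochberg adjusted p of 0.300, and DESeq2 gave −0.79 ± 0.29 (SE, adjusted p = 0.0411), above the threshold of 0.01. Per 1000 *Col1a1* counts, *Sparc* gave 258 in Stim1 cKO and 265 in Stim1 Ctrl, with 394 in Stim1 HT. This order depended on the collagen chain. The log2 ratios of Stim1 cKO to Stim1 HT and to Stim1 Ctrl were −0.71 and −0.86 for *Sparc*, and −0.77 and −1.31 for *Col1a2*. Relative to *Col1a2*, *Sparc* was therefore highest in Stim1 cKO.

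*Bglap* (chr3:88383501-88384464, minus strand) encodes osteocalcin, the vitamin K-dependent Gla protein that mature osteoblasts and odontoblasts secrete. It had 5924 counts in Stim1 cKO, with 5919 in Stim1 HT and 2856 in the Stim1 Ctrl library, or 245, 300.5 and 111 CPM. The controls differed more from each other (by 1.44 on the log2 scale, Stim1 HT being higher) than Stim1 cKO did from either, and the edgeR log2 fold change against both was 0.25 (Benjamini-Hochberg adjusted p = 0.797). The sign depended on the control, with a log2 ratio of −0.30 to Stim1 HT and 1.14 to Stim1 Ctrl. *Bglap* counts are uncertain because 37.0% of its 100-base stretches also occur in the neighbouring copy *Bglap2*. *Bglap2* had 76.1 CPM in Stim1 cKO, with 125 in Stim1 HT and 54.0 in the Stim1 Ctrl library, and the sum of both genes kept the order of the libraries, at 321, 425 and 165 CPM. *Bglap3*, which shares 1.73% of the *Bglap* stretches, had 30.5 CPM in Stim1 cKO against 7.61 and 7.93 (log2 fold change 1.97, edgeR with Benjamini-Hochberg adjusted p = 0.0295).

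Levels of different genes can be set side by side as CPM per kilobase of exon. On this scale *Sparc* was the highest of the 8 genes in every library, at 1436 CPM per kilobase in Stim1 cKO, with 2356 in Stim1 HT and 2603 in the Stim1 Ctrl library. *Spp1* came second in both controls, at 632 and 1080 CPM per kilobase, and 5th in Stim1 cKO, at 152. *Bglap* came second in Stim1 cKO at 396 CPM per kilobase, followed by *Ibsp* at 334 and *Dspp* at 285. *Dmp1*, *Phex* and *Mepe* held the last 3 places in every library. In Stim1 Ctrl, *Bglap* and *Dspp* were neighbours in this order at 180 and 179 CPM per kilobase. Without replicates, whether neighbours differ beyond the spread between mice cannot be given.

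**Figure D3:**
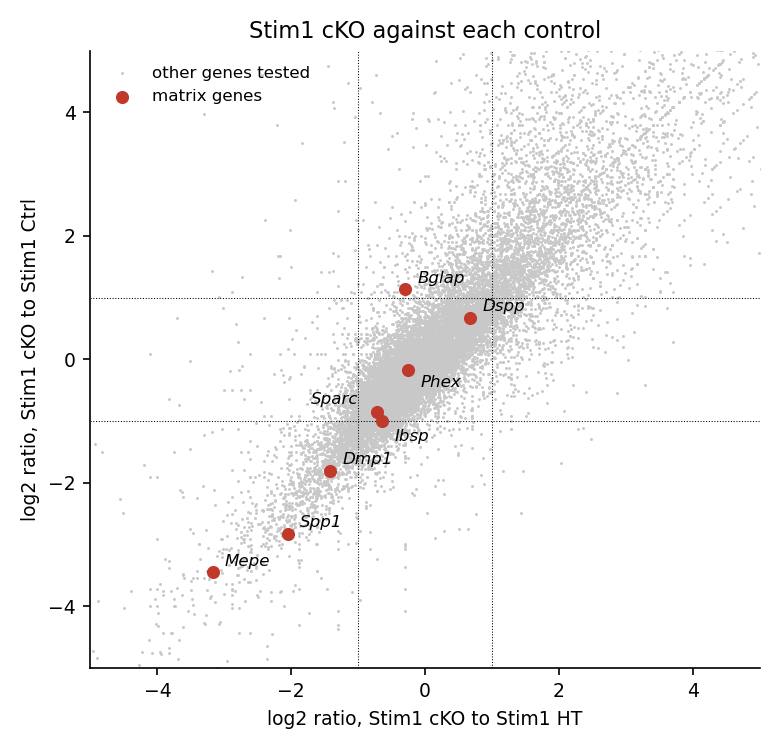
Log2 ratio of TMM-scaled CPM of Stim1 cKO to Stim1 HT (horizontal axis) and to Stim1 Ctrl (vertical axis), with 1 grey point per gene tested and the 8 matrix genes in red. Dotted lines mark 2-fold, 584 genes lie outside the axes, and both ratios share the Stim1 cKO library. *Mepe*, *Spp1* and *Dmp1* lie beyond 2-fold on both axes, and *Bglap* is below 0 on one axis and above it on the other.

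The 5 SIBLING genes lie within 270 kb of chromosome 5, on GENCODE M21 (GRCm38). Within 500 kb on either side of them, 16 protein-coding genes are annotated, the 5 included, all of them listed, and 10 that are not SIBLING genes were tested. Of these 10, 5 lay below both controls in Stim1 cKO and 3 lay above, with a median log2 fold change of −0.02. *Sparcl1*, which encodes a SPARC-like matrix protein and lies next to *Dspp*, had a log2 fold change of −0.85. *Pkd2*, the calcium-permeable channel gene next to *Spp1*, had a log2 fold change of 0.02. The extremes were *Zfp951* at −1.24 and *Gm17660* at 4.89, which had 1134 counts in Stim1 cKO, with 55 in Stim1 HT and 11 in the Stim1 Ctrl library. *BC005561* was at 2.67, with 3097, 428 and 478 counts. Neighbours on either side of the SIBLING genes thus included values above and below 0.

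**Figure D4:**
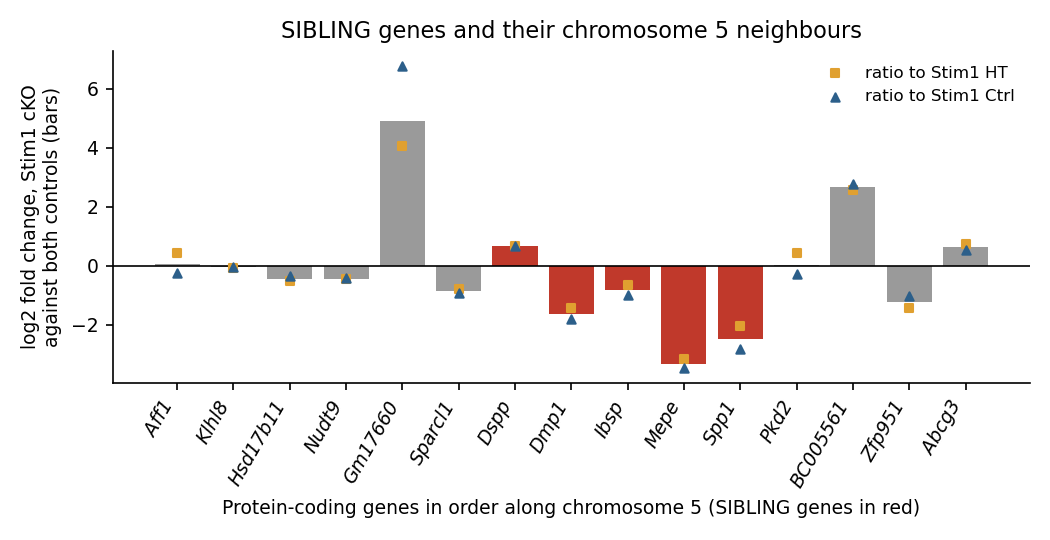
Log2 fold change of Stim1 cKO against both controls (bars) for the protein-coding genes tested around the SIBLING genes, in their order along chromosome 5, with the ratio to each control as a symbol. Of the red SIBLING bars 4 point down and that of *Dspp* points up, and the grey bars range from −1.24 to 4.89.

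Enzymes that modify the SIBLING proteins had lower values in Stim1 cKO in most cases. Of 9 kinase and protease genes, 8 were lower than in both controls and 1 was higher. More than 2-fold lower were 3, and the median log2 fold change was −0.86, against −0.01 for all genes tested. Among the 8, *Tll2* rested on 7, 8 and 15 counts, and its log2 interval against Stim1 HT (−2.19 to 1.17) covered both directions. *Mmp9*, the lowest of the 3 at −2.58, is also one of the osteoclast markers above. *Fam20c*, the Golgi kinase that phosphorylates SIBLING proteins, was at 31.9 CPM in Stim1 cKO, with 76.4 in Stim1 HT and 74.1 in the Stim1 Ctrl library. *Bmp1*, a protease that cleaves DMP1 and DSPP precursors, was at 116, 206 and 290 CPM. *Mmp3* was the exception, with a log2 fold change of 1.41. DESeq2 called 3 of the 9 lower, beside 4.71% of all genes tested. None of the 9 was called lower by edgeR, which called no gene of the whole table lower. Of all genes tested, 42.1% were lower than in both controls and 8.23% were more than 2-fold lower. When scaled by library size alone, 6 of the 9 were lower than both controls.

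Receptor genes for osteopontin and bone sialoprotein numbered 10. Below both controls in Stim1 cKO were 9 of them (8 when scaled by library size alone), 4 were more than 2-fold lower, and the median log2 fold change was −1.00. *Itgb3*, the integrin beta chain of osteoclasts and platelets, was at 25.2 CPM in Stim1 cKO, with 70.0 in Stim1 HT and 99.2 in the Stim1 Ctrl library. *Cd44*, another osteopontin receptor gene, had a log2 fold change of −0.29. DESeq2 called 3 of the 10 lower, beside 4.71% of all genes tested, and edgeR called no gene of the whole table lower. The shares of all genes below both controls and more than 2-fold lower were 42.1% and 8.23%.

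Genes for collagen and its processing lay below both controls in 10 of 10 cases (9 of 10 when scaled by library size alone), 7 were more than 2-fold lower, and the median log2 fold change was −1.68. *Serpinh1*, the collagen chaperone gene, was at 368 CPM in Stim1 cKO, with 1345 in Stim1 HT and 1517 in the Stim1 Ctrl library. *Col1a1* had the smallest departure of the list, at −0.51. DESeq2 called 7 of the 10 lower, beside 4.71% of all genes tested, and edgeR called no gene of the whole table lower. The shares of all genes below both controls and more than 2-fold lower were 42.1% and 8.23%.

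The medians of the other lists were closer to 0. Of 12 transcription factor genes of hard tissue, 8 were lower than in both controls and 2 were higher, with a median of −0.25. Scaled by library size alone, 4 were lower and 3 higher, with a median of 0.00. *Sp7*, which encodes osterix, had a log2 fold change of −1.32, and *Runx2*, whose family gives the Runx site its name, 0.38. Of 7 genes for mineral formation, 6 were lower and 1 was higher, with a median of −0.45 (4 lower and a median of −0.19 by library size alone). *Alpl*, the phosphatase gene, was at −0.86, and the phosphate transporter gene *Slc20a1* at 1.01. Among 6 genes of the phosphate hormone axis, 5 were lower and 1 was higher, with a median of −0.65 (3 lower and a median of −0.40 by library size alone). One of the 5, *Fgf23*, had only 9, 8 and 22 counts. Its log2 ratio to Stim1 HT was −0.13, with an interval of −1.67 to 1.45 that covered both directions. *Sost*, the sclerostin gene of osteocytes, was at 2.27 CPM in Stim1 cKO, with 11.2 in Stim1 HT and 12.2 in the Stim1 Ctrl library. Of 5 genes of Gla proteins and vitamin K enzymes, 2 were lower and 2 higher, with a median of −0.14 (0.11 when scaled by library size alone). In the SPARC family, 4 of 7 were lower and 3 higher, with a median of −0.59, from −2.10 for *Smoc2* to 2.15 for *Spock1*. DESeq2 called 1 of the transcription factor genes and 2 of the phosphate hormone genes lower, 1 Gla protein gene higher, and 1 SPARC family gene in each direction. Over all genes tested, 42.1% were lower than in both controls and 43.6% were higher. Of these 18702 genes, DESeq2 called 880 lower (4.71%) and 1107 higher.

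**Figure D5:**
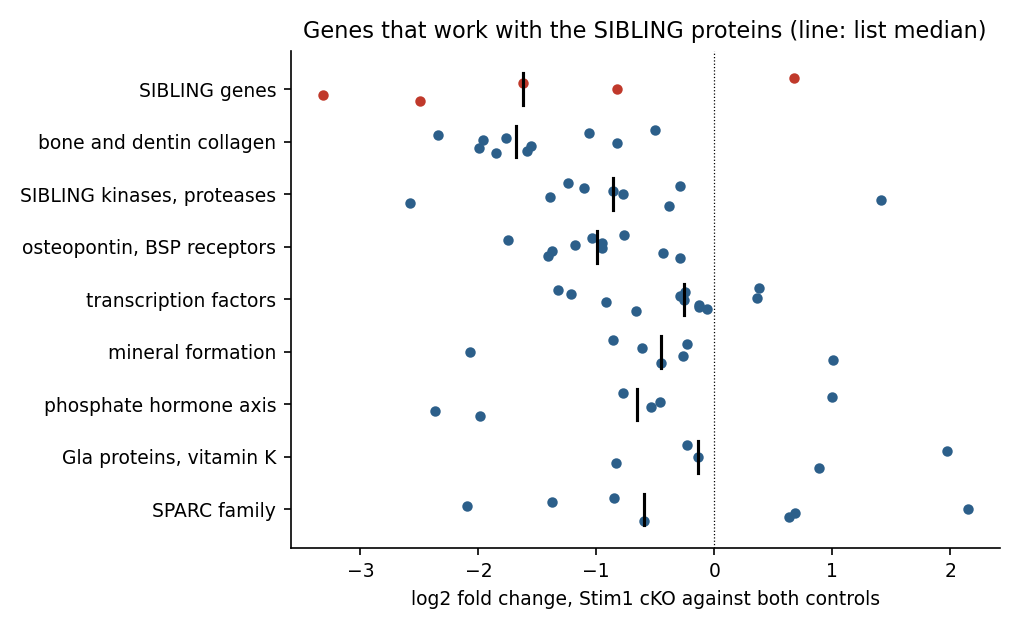
Log2 fold change of Stim1 cKO against both controls (horizontal axis) for the genes of 9 lists, 1 point per gene tested, with a vertical line at the median of each list. The medians run from −1.68 for the collagen genes and −1.62 for the SIBLING genes to −0.14 for the Gla protein genes, beside −0.01 for all genes tested.

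Patterns over the 3 libraries were compared by the distance between pairs of log2 ratios (Stim1 cKO to Stim1 Ctrl, and Stim1 HT to Stim1 Ctrl), over 14969 genes that averaged 50 counts or more. Nearest to the mean pair of the SIBLING genes, −1.68 and −0.36, were *Pdlim3*, *Cul7*, *Cd93*, *Dtl* and *Dok7*, none of which is a gene of the mineralized matrix. Among the 8 genes themselves, *Ibsp* and *Sparc* were the closest pair at a distance of 0.25, and 743 genes were nearer to *Ibsp* than *Sparc* was. *Mepe* and *Spp1* were 0.80 apart, with 117 genes nearer to *Mepe*. *Dspp* and its nearest member, *Phex*, were 0.86 apart, with 5208 genes nearer to *Dspp*. With 3 libraries many genes share any given pattern.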

How the data were processed

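RNA of the incisor enamel organ was sequenced in 3 libraries, 1 per genotype. Per the labels, reads were checked with FastQC and aligned with STAR, and DESeq2 was named. The genome build, annotation, counting tool and strand setting are not given in the sources used here. The study's methods name a directional NEBNext kit and the labels a SMARTER kit. The authors deposited raw counts per gene symbol without normalization, and every listed gene has at least 1 count in each library. The 25 rows whose symbol had become a date and the 2 repeated symbols stayed in the tests.

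The Stim1 cKO library was compared with both control libraries as 1 group, as in the study, by edgeR 4.0.16 in R 4.3.3 (TMM, filterByExpr, quasi-likelihood test, Benjamini-Hochberg adjustment over 18702 genes). The residual degrees of freedom were 1. Genes were called at an adjusted p under 0.01 and a fold change over 2. DESeq2 1.42.0, RLE and library size scaling, no filter, a minimum mean of 50 counts, a threshold of 0.05 and each control alone were the alternatives. Ratios of single libraries carry no test. Count intervals are 95% exact Poisson and share intervals 95% Wilson. The fits were also run on simulated counts with a shared dispersion and equal mean levels in all libraries, apart from genes changed on purpose. The differences in composition between the real libraries were absent there, so the simulation does not show how the fits behave here. Positions and exon lengths were from GENCODE M21 and upstream sequences from RefSeq. Python 3.11.15, numpy 2.4.6, pandas 2.3.3, scipy 1.17.1 and matplotlib 3.10.9 were used.

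The 8 genes and the gene lists were chosen with earlier results of these data known. Named were every member, genes of the lists, protein-coding genes within 500 kb of the SIBLING genes, *Stim1*, and the 5 genes nearest to the SIBLING genes in pattern. *Gm42793* falls outside this rule and was named for its overlap, and *Bpifb9b*, *Muc5b*, *Elavl3*, *Xist* and the Y-linked genes (*Ddx3y*, *Eif2s3y*, *Uty* and *Kdm5d*) were picked with their values in view. The markers *Cryba1*, *Crygd* and *Crygb* were not analysed here.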

Additional observations from a re-analysis of the deposited data

How the results depend on the processing

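Of 40 alternative log2 fold changes of the 8 genes with a test, 35 kept their direction and their side of the threshold. Of 16 ratios to a single control, which have no test, 15 kept their direction. *Dmp1*, *Mepe* and *Spp1* became called with DESeq2 and *Mepe* also without a filter on low counts (edgeR, Benjamini-Hochberg adjusted p = 0.0097). *Phex* changed sign with library size alone (0.040), and *Bglap* did so against Stim1 HT alone (−0.30). The number of the 8 genes called, 0 as reported, was 3 with DESeq2, 1 without a filter and 3 at an adjusted p under 0.05. Across all genes, 14 were called as reported, 1987 with DESeq2, 907 without a filter, 50 with RLE scaling, 6 with library size alone, 6 at a mean of at least 50 counts and 1811 at an adjusted p under 0.05. The cause of these differences between fits was not tested. The 3 genes more than 2-fold lower than both controls became 5 at 1.5-fold and 2 at 3-fold, and they numbered 3 against either control alone. The summed SIBLING counts per 1000 *Col1a1* counts were 108.6 in Stim1 cKO, with 139.0 in Stim1 HT and 114.1 in the Stim1 Ctrl library. In the same order they were 249.7, 411.8 and 358.8 with counts divided by exon length, and 96.7, 93.0 and 66.3 without *Spp1*. They were 226.2, 182.0 and 169.3 per 1000 *Col1a2* counts, and 420.9, 352.7 and 431.1 per 1000 *Sparc* counts, so the place of Stim1 cKO among the libraries depended on the reference gene and on *Spp1*. No paired analysis was possible because there was 1 library per genotype. Depth limited *Mepe* most, with 31 counts in Stim1 cKO.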
